A study of Mus musculus with 24 samples.

Results

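Collagen chain genes were examined in epididymal white fat, the fat pad beside the epididymis, of 12 adult male CD-1 mice, an outbred stock. Members were all genes of the deposited RNA table whose symbol is Col, a number, a and a number, which gave 38 of 20624 genes. They comprised 11 fibrillar chains, 6 chains of the basement membrane collagen type IV and 21 chains of other types. The type VI chains Col6a3, Col6a4, Col6a5 and Col6a6 and the chains Col20a1, Col21a1 and Col26a1 were not analysed here.

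The BPA group was 6 males whose mothers were given bisphenol A, a plasticizer with estrogen-like activity, by mouth at 500 ug/kg/day from gestational day 9 to 18. The vehicle group was 6 males whose mothers were given corn oil over the same days. Both groups ate a chow with 4% fat and were sampled at 19 weeks of age, and neither carried a gene alteration. Litters are not given in the labels, so each animal was taken as independent. Each value below is the authors' normalized read signal per gene in 1 animal, which is not divided by gene length.

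Collagens are secreted proteins in which chains wind around each other into a triple helix. Types I, III and V form the fibrils of the tissue between cells, type IV forms the sheet of the basement membrane that surrounds each adipocyte and each vessel, and type VI forms beaded filaments that link the one to the other. Most collagen RNA in fat is known to come from stromal fibroblasts and fat progenitors, while type IV chains are also made by adipocytes and endothelial cells.

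The label of the tissue was checked against its markers. Summed signal of 8 adipocyte markers, among them Adipoq and Plin1, ran from 131969 to 215828 in BPA animals and from 111294 to 214962 in vehicle animals. Of 6 cartilage and bone markers, Acan, Matn1 and Sp7 stayed below 10 in all 12 libraries, Comp reached 14.4 and Hapln1 17.4, and Bglap1 is listed at 0, which in these files need not mean that it was not expressed. A pair of libraries, BPA animal 5 and vehicle animal 6, stood apart by 8 markers of epididymal and duct epithelium, which summed to 14176 and 13269. BPA animal 2 followed at 4110, and the other 9 lay between 131 and 1556. Lrp2 made up most of the sum in BPA animal 5, at 11905.6, and was 6882.3 in vehicle animal 6. Lrp2, Pax8, Foxj1 and Epcam were highest in both these libraries. Adam7 and Crisp1 were only 18.9 and 13.5 in BPA animal 5, against 3280.4 and 1416.2 in vehicle animal 6. In vehicle animal 4 they were 333.4 and 255.4. Cubn ran only from 37.7 to 84.9 over the libraries. Vehicle animal 3 stood apart by 8 macrophage markers, which summed to 38406 there and to at most 15915 in any other animal. In whole tissue, fewer cells of a type and less RNA per cell cannot be told apart.

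Promoter sequence is shown for 3 members that the results turn on: Col3a1 and Col1a2, which had the highest signal and were both highest in vehicle animal 3, and Col8a2, which was high in the libraries rich in duct epithelium transcripts. Each line gives the 120 bases before the annotated gene start, 5′ to 3′ on the strand of the gene, from RefSeq on GRCm38.p6. Capitals mark matches on either strand to TATAAA, the core of the TATA box (reverse complement TTTATA), to CCAAT, the core of the box of that name (reverse complement ATTGG), and to GGGCGG, the core of the GC box (reverse complement CCGCCC). The Col3a1 stretch is chr1:45311418-45311537 on the + strand, that of Col1a2 is chr6:4505498-4505617 on the + strand and that of Col8a2 is chr4:126286674-126286793 on the + strand.
Col3a1: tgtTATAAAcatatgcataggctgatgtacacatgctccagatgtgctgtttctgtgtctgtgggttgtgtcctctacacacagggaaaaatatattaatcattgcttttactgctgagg
Col1a2: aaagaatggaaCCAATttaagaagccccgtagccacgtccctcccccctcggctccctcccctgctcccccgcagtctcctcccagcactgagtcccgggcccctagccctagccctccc
Col8a2: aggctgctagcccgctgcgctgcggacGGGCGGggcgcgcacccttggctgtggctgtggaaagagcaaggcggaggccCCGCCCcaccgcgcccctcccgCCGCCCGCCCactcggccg

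Col3a1 held 1 TATAAA, which begins 117 bases before the start, and Col1a2 held 1 CCAAT, which begins 109 bases before it. Col8a2 held 4 matches to GGGCGG or its complement, and the last 2 of them overlap. Within the same 120 bases, TATAAA was found in 6.34% of 32851 RefSeq promoters, CCAAT in 21.3% and GGGCGG in 26.5%. Over the full 250 bases before the start, 30 members had an entry, with 33 windows among them. Of these members 5 held TATAAA, 12 held CCAAT and 18 held GGGCGG, counted if any window of the gene did. The shares of all promoters, taken per window, were 12.4%, 33.8% and 32.7%. Col1a1, Col2a1, Col4a3, Col5a2, Col9a3, Col12a1, Col14a1 and Col22a1 had no entry. Col4a1 and Col4a2 lie next to each other on opposite strands, and their promoter windows share 78 bases. These matches describe the letters of the windows and nothing about binding.

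Ranked by mean signal over the 12 animals, Col3a1 came first with 34.5% of all collagen signal, and Col1a2 brought the sum to 48.9%. Col4a2, Col4a1, Col15a1, Col1a1, Col6a1, Col6a2, Col14a1 and Col5a1 followed, and these 10 genes together held 90.4%. Ranking by the median gave the same 10. Because the signal grows with the length of a transcript and no transcript lengths were used, this order is one of read signal and does not rank the genes by transcript number.

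Of the 38 genes, 28 passed the filter on low values, a signal of at least 10 in at least 6 libraries. The other 10 were Col7a1, Col24a1, Col9a3, Col13a1, Col11a2, Col22a1, Col25a1, Col9a1, Col2a1 and Col9a2, and none exceeded 12.1 in any animal. Among these are Col2a1, Col9a1, Col9a2, Col9a3 and Col11a2, which are known from cartilage. Col11a1, at up to 47.1, and Col10a1, at 13.1 to 32.6, are also known from cartilage and passed the filter. Col8a2 and Col11a1 only just met the filter, with 6 libraries at or above 10, and Col7a1 only just missed it, with 5.

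**Figure D1:**
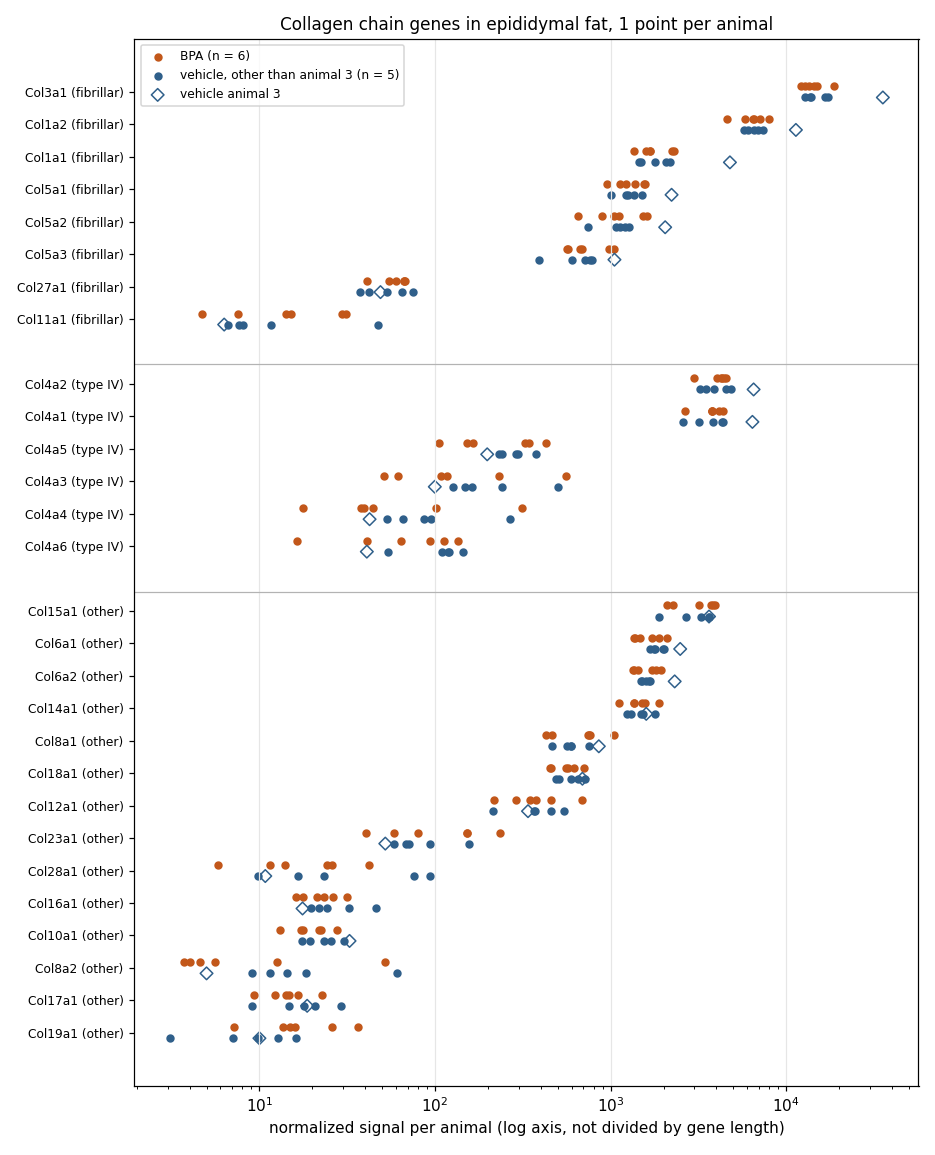
Normalized signal of the 28 collagen chain genes past the filter, 1 point per animal on a log axis, with BPA animals above vehicle animals in each row and vehicle animal 3 as an open diamond. Every row has overlapping groups, and the diamond stands far to the right for Col3a1 at 35481 and Col1a1 at 4777.

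Summed collagen signal averaged 44179 ± 5072 in BPA animals and 50692 ± 15853 in vehicle animals (SD, n = 6 each). Vehicle animal 3 reached 82382, and without it the vehicle mean was 44355 ± 3587 (SD, n = 5). Fibrillar chains made up 58.6% ± 3.5 of collagen signal in BPA animals and 60.8% ± 4.7 in vehicle animals. Type IV made up 19.2% ± 2.5 in BPA animals and 18.4% ± 1.9 in vehicle animals. The other types made up 22.2% ± 1.6 in BPA animals and 20.9% ± 3.8 in vehicle animals (SD, n = 6 each). All 3 shares overlapped between the groups.

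The comparison the study was built for, BPA against vehicle, called no collagen gene. Over the 28 genes the log2 fold lay between -0.75 and 0.85, its median was -0.12, and each 95% interval included 0. With limma on log2(value + 1) and Benjamini-Hochberg adjustment over 12528 genes, 0 genes of the whole table (0.0%) and 0 collagen genes passed an adjusted p of 0.05. At an unadjusted limma p under 0.05 there were 239 genes in all (1.91%) and 0 collagen genes. The lowest adjusted limma p among the members was 0.9997. In no member did the BPA values and the vehicle values separate without overlap, which happened for 4 of the 12528 genes (0.0319%).

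More collagen genes had a fold below 0 than above it: 20 of 28, against 49.0% of all genes tested, whose median fold was 0.00. This count rested partly on 1 library. With vehicle animal 3 left out, 15 of 28 had a fold below 0, against 49.0% of the 12451 genes then tested, and the median was -0.01. Again 0 genes (0.0%) passed the adjusted limma p, and 193 (1.55%) had an unadjusted p under 0.05, with no collagen gene among them. The 95% interval of a collagen gene reached a median of 0.51 on the log2 scale to each side, against 0.34 for all genes tested. Intervals differed widely between members, from -0.31 to 0.22 for Col14a1 to -2.15 to 0.65 for Col8a2.

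**Figure D2:**
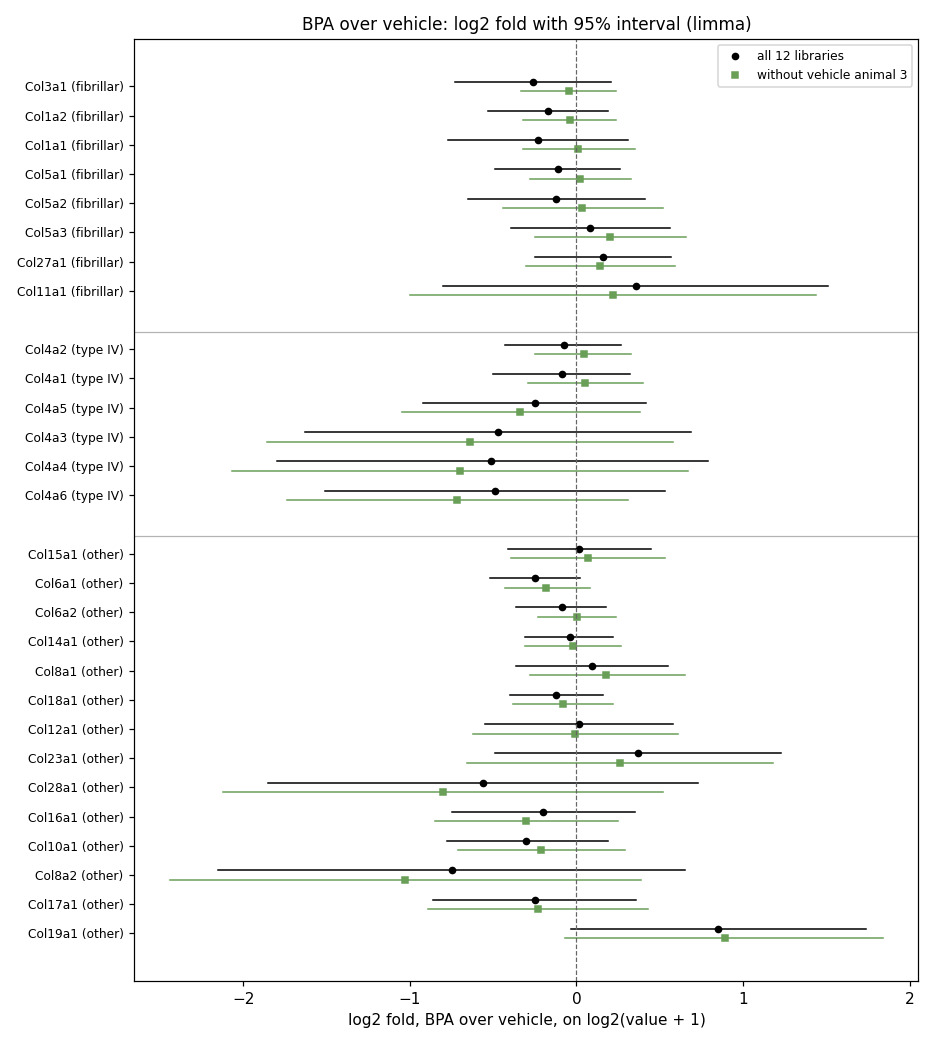
Log2 fold, BPA over vehicle, on log2(value + 1) with its 95% limma interval for the 28 genes, in black with all 12 libraries and in green without vehicle animal 3. Every interval includes 0, and the green points of the leading fibrillar genes lie closer to 0 than the black ones.

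Among the fibrillar chains, 5 of the 8 past the filter had a fold below 0, with a median of -0.12. Without vehicle animal 3 the count was 2 of 8 and the median 0.03.

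Col3a1, the only chain of type III collagen, had a signal of 12096, 13911 and 18739 in BPA animals (lowest, median, highest), against 12741, 15263 and 35481 in vehicle animals. The groups overlapped, and the highest vehicle value was that of animal 3, the next being 17355. Its log2 fold was -0.26 (95% interval -0.73 to 0.21; exact permutation p = 0.366, two-sided). Without vehicle animal 3 it was -0.04 (-0.33 to 0.24). Exact p-values here cover all 924 assignments of 12 animals to 2 groups of 6, can go no lower than 0.002165, and are unadjusted over the 28 genes so tested, among which they ran from 0.07792 to 0.9416.

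Col1a2, the second chain of type I collagen, the main fibril protein, had 4586, 6485 and 7987 in BPA animals, against 5753, 6720.3 and 11344 in vehicle animals. BPA animal 1 was lowest and vehicle animal 3 highest, and the groups overlapped. Its log2 fold was -0.17 (-0.53 to 0.19), and without vehicle animal 3 it was -0.04 (-0.32 to 0.24).

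Col1a1, the first chain of type I, had 1362, 1681 and 2308 in BPA animals, against 1446, 1924 and 4777 in vehicle animals. Vehicle animal 3 lay above all others by more than the whole range of the other 11. The log2 fold was -0.23 (-0.77 to 0.31) and turned to 0.01 (-0.32 to 0.35) without that animal.

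Type V collagen sits inside type I fibrils and limits their width. Its chain Col5a1 had 955, 1294.5 and 1565 in BPA animals, against 1004.5, 1309 and 2223 in vehicle animals. For Col5a2 the signal was 656, 1083 and 1617.5 in BPA animals, against 743, 1164 and 2044 in vehicle animals. Both overlapped between the groups and were highest in vehicle animal 3. Their folds of -0.11 for Col5a1 and -0.12 for Col5a2 turned to 0.02 and 0.04 without it. Col5a3, a further type V chain, averaged 752 ± 207 in BPA animals and 719 ± 218 in vehicle animals (SD, n = 6 each). The low fibrillar chains Col27a1 and Col11a1 had folds of 0.16 and 0.36, with intervals that included 0.

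Of the type IV chains, all 6 had a fold below 0, with a median of -0.36, and none passed the test. Without vehicle animal 3 the count was 4 of 6, since the folds of Col4a1 and Col4a2 changed sign, while the median was -0.49, as the other 4 folds lay further below 0. The products of Col4a1 and Col4a2 assemble together in nearly all basement membranes, whereas those of Col4a3, Col4a4 and Col4a5 form the network of the kidney glomerulus and some other epithelia, and Col4a6 pairs with Col4a5 in a further set.

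Col4a2 had 2984, 4281 and 4561 in BPA animals, against 3206.5, 4197 and 6516 in vehicle animals. Col4a1 had 2646.5, 3785 and 4374 in BPA animals, against 2569, 4054 and 6416 in vehicle animals. Both were highest in vehicle animal 3, and BPA animal 2 and vehicle animal 6 held the 2 lowest values of each. The log2 fold was -0.08 for Col4a2 (-0.43 to 0.27) and -0.09 for Col4a1 (-0.50 to 0.32). Without vehicle animal 3 the folds were 0.04 for Col4a2 and 0.05 for Col4a1.

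Col4a5 had 105, 244 and 431 in BPA animals, against 198, 266 and 377 in vehicle animals. The BPA values spanned wider than the vehicle values and enclosed them. Its log2 fold was -0.25 (-0.92 to 0.42; exact permutation p = 0.496).

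Col4a3, Col4a4 and Col4a6 were described after their values had been seen. Col4a3 had 50.9, 112 and 560.1 in BPA animals, against 99.7, 156 and 498.5 in vehicle animals. Col4a4 had 17.6, 41.9 and 314.5 in BPA animals, against 42.4, 75.8 and 266.5 in vehicle animals. Col4a6 had 16.3, 78.8 and 134 in BPA animals, against 40.9, 114 and 145 in vehicle animals. The highest value of each group belonged to BPA animal 5 and to vehicle animal 6 for all 3 genes, and the groups overlapped. Log2 folds were -0.47, -0.51 and -0.49 for Col4a3, Col4a4 and Col4a6, with intervals of more than 1 log2 unit to each side of the estimate. With each library left out in turn, the fold ran from -0.89 to -0.18 for Col4a3, from -0.99 to -0.17 for Col4a4, from -0.72 to -0.12 for Col4a6 and from -0.44 to -0.04 for Col4a5.

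These minor type IV chains went with the libraries that hold duct epithelium transcripts. Col4a3, Col4a4, Col4a5, Col4a6, Col8a2, Col27a1 and Col11a1, 7 of the 28 genes, had BPA animal 5 and vehicle animal 6 as their 2 highest libraries, as did 9.63% of all genes tested. All 8 duct epithelium markers were in the table, and their sum was 131 to 14176 in BPA animals with a median of 489, against 187 to 13269 in vehicle animals with a median of 1096. The part of these transcripts in the values of the minor chains was not tested. With BPA animals 2 and 5 and vehicle animal 6 left out, the median fold of the 6 type IV chains was -0.65 and limma called no gene at an adjusted p of 0.05. Among the 9 remaining animals Col4a4 had a fold of -0.97 with an unadjusted limma p of 0.0097, and Col4a3 a fold of -0.90 with an unadjusted limma p of 0.0112. The libraries left out held the 2 highest BPA values of both genes, 560.1 and 230.8 for Col4a3 and 314.5 and 100.7 for Col4a4. Of the vehicle values they held only the highest. This choice of libraries shapes both the folds and the spread, so the p-values are no test of BPA in these genes.

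**Figure D3:**
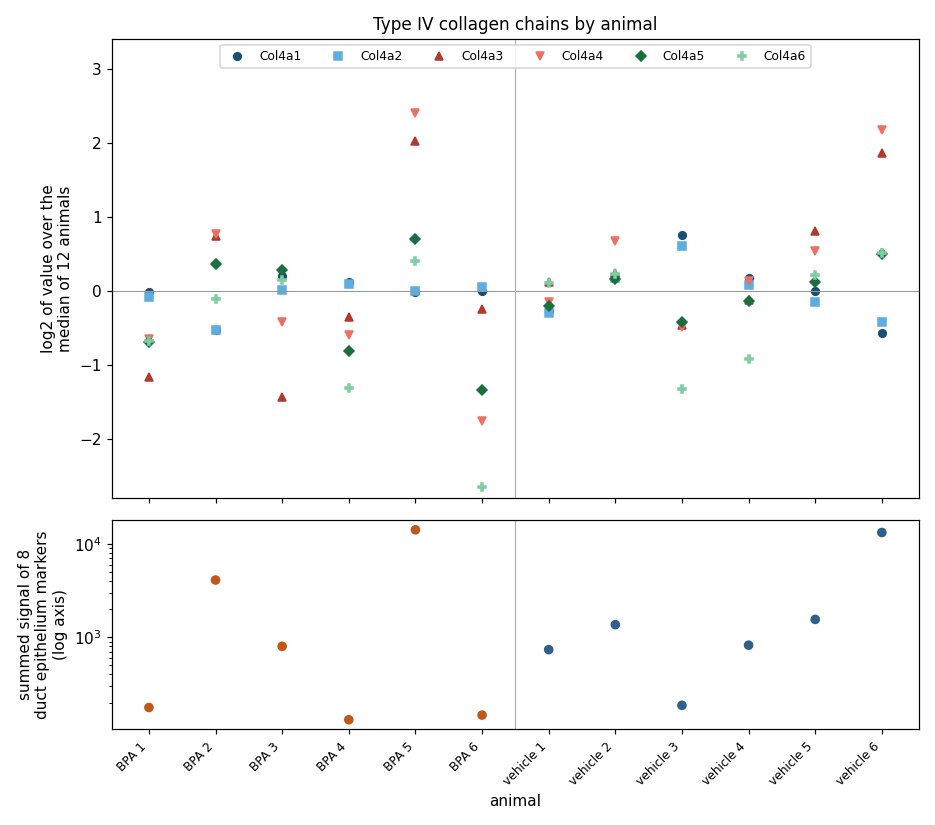
Upper panel, the 6 type IV chains in each animal as log2 of the value over the median of the 12 animals; lower panel, summed signal of 8 duct epithelium markers on a log axis, with BPA animals left of vehicle animals. Col4a3 and Col4a4 stand highest in BPA animal 5 and vehicle animal 6, where the markers sum to 14176 and 13269, while Col4a1 and Col4a2 do not.

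Chains of other types had 9 of 14 folds below 0, with a median of -0.105, and 9 of 14 with a median of -0.05 without vehicle animal 3.

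Col15a1, a basement membrane proteoglycan collagen, had 2094, 3472 and 3906 in BPA animals, against 1893.5, 3433 and 3632 in vehicle animals. BPA animals 2 and 5 and vehicle animal 6 held the 3 lowest values, and the groups overlapped. Its log2 fold was 0.02 (-0.41 to 0.45).

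For type VI, Col6a1 had 1364, 1593 and 2092 in BPA animals, against 1685.5, 1883 and 2489 in vehicle animals. Of the 6 BPA animals, 3 lay below every vehicle animal. With a log2 fold of -0.25 (-0.52 to 0.02) and an unadjusted limma p of 0.070, adjusted to 0.9997, it came closest to the threshold among the genes of high signal, and the exact permutation p was 0.093. Without vehicle animal 3 the fold was -0.18 (-0.43 to 0.08). Col6a2 had 1334, 1577 and 1944 in BPA animals, against 1484, 1628 and 2315 in vehicle animals, and the groups overlapped. Its fold of -0.09 (-0.36 to 0.18) became 0.00 (-0.23 to 0.24) without vehicle animal 3.

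Type VIII collagen forms short-chain lattices under endothelium and in the cornea. Its chain Col8a1 had 429, 747 and 1043 in BPA animals, against 462, 593 and 856 in vehicle animals. The groups overlapped, and the log2 fold was 0.09 (-0.36 to 0.55). Its partner Col8a2, whose GC-rich promoter is printed above, had 3.7, 5.1 and 51.6 in BPA animals, against 5.0, 12.9 and 60.8 in vehicle animals. BPA animal 5 and vehicle animal 6 lay far above the other 10, and the log2 fold of -0.75 had an interval of -2.15 to 0.65.

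Col19a1, a low fibril-associated chain chosen after its values were seen, had the smallest limma p of the members. It had 7.2, 15.5 and 36.5 in BPA animals, against 3.1, 9.9 and 16.1 in vehicle animals. BPA animals 2 and 3 lay above every vehicle animal, and the rest overlapped. The log2 fold was 0.85 (-0.03 to 1.74), the limma p 0.057 unadjusted and 0.9997 adjusted, and the exact permutation p 0.078. Col14a1 and Col12a1, fibril-associated chains of higher signal, had folds of -0.04 and 0.02. Col18a1, a relative of Col15a1 and the source of endostatin, had a fold of -0.12, and Col10a1, Col16a1, Col17a1, Col23a1 and Col28a1 ran from -0.56 to 0.37.

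Vehicle animal 3 was the highest of the 12 libraries in 11 of the 28 genes, against 15.5% of all genes tested. These were Col1a1, Col1a2, Col3a1, Col5a1, Col5a2, Col5a3, Col4a1, Col4a2, Col6a1, Col6a2 and Col10a1. Over the 8 fibrillar chains its signal was a median of 1.75 times the median of the other 11 animals, and the ratio reached 2.84 for Col1a1 and 2.57 for Col3a1. Over the 6 type IV chains the median ratio was 0.68, with 1.69 for Col4a1 and 1.53 for Col4a2 and 0.37 for Col4a6. Over all genes tested it was 0.98.

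All 8 macrophage markers were highest in that animal, and their sum was 2.98 times the median of the other 11. Sums ran from 10397 to 13612 in BPA animals and from 11820 to 38406 in vehicle animals. Fibroblast and fat progenitor markers summed to 0.85 times the median of the others, endothelial markers to 1.0 times and adipocyte markers to 0.90 times. Of 9 fibroblast markers, Thy1, Ly6a and Pdgfrb were highest in vehicle animal 3, with Thy1 at 470.0 there and at most 328 elsewhere. Dcn, at 14843, was below 10 of the other animals. Dcn was also the largest member of the fibroblast sum in vehicle animal 3, ahead of Dpt at 11571.2. The 0.85 thus leans on Dcn and does not describe each of the other fibroblast markers. The part of these cells in the collagen values was not tested.

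**Figure D4:**
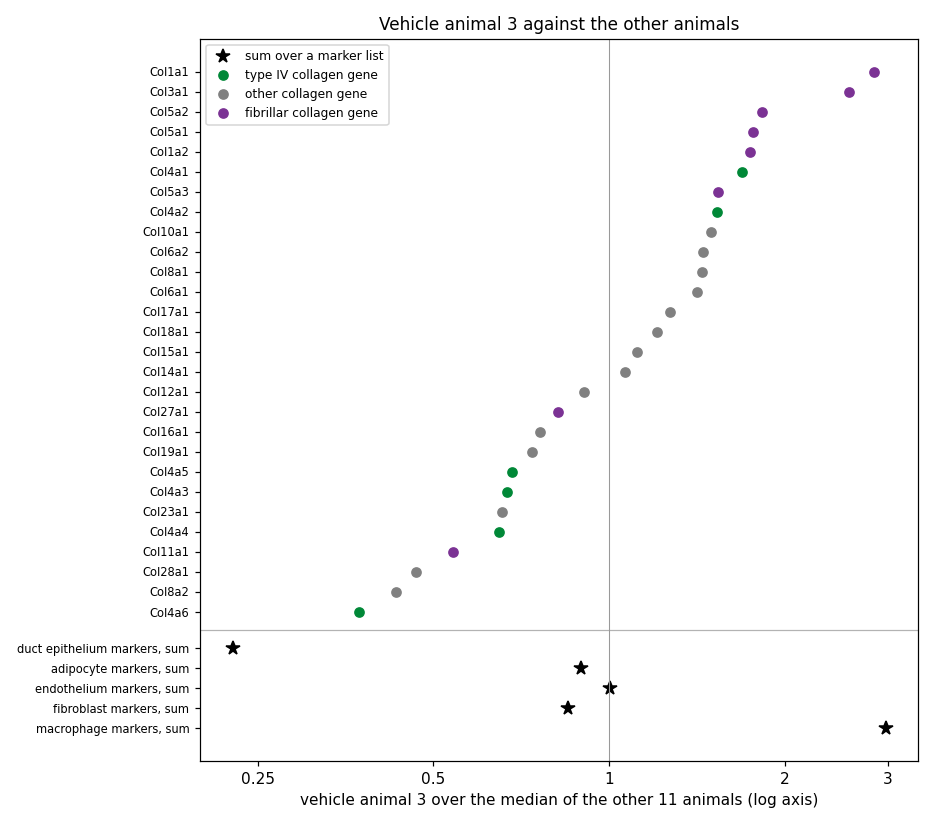
Signal of each collagen gene past the filter, and of 5 summed marker lists, in vehicle animal 3 over the median of the other 11 animals, on a log axis. Fibrillar genes hold the highest ratios, up to 2.84 for Col1a1, and the macrophage list stands at 2.98. The fibroblast list stands at 0.85, a sum in which Dcn is the largest member.

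The authors' deposited table of their own comparison, in which 3 vehicle animals marked low in Fggy, a gene for a carbohydrate kinase, animal 3 among them, were set against the other 9, lists 20 collagen chain genes. In the authors' deposited table, 2 of the 20 had a p-value under 0.05, against 5.5% of its 9522 genes. Col3a1 had a p-value of 0.0226 and a linear fold of 1.65 there, and Col1a2 a p-value of 0.0378 and a linear fold of 1.35, in the authors' deposited table, where a fold is the larger mean over the smaller. The low-Fggy animals were the side with the larger mean for both genes. Vehicle animal 3 among them was the highest of all libraries, at 35481 for Col3a1 and 11344 for Col1a2. The grouping by Fggy thus shares vehicle animal 3 with the comparison of BPA and vehicle above.

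Chains of the same collagen type kept closer ratios from animal to animal in some types than in others. The signal of Col4a1 over that of Col4a2 was 0.92 ± 0.06 in BPA animals and 0.92 ± 0.07 in vehicle animals (SD, n = 6 each). Over the 12 animals this ratio had a coefficient of variation of 6.59%, whereas the chains themselves had 25.4% and 21.5%. Both chains thus went up and down together, vehicle animal 3 included, where the ratio was 0.98.

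The ratio of Col6a1 to Col6a2 averaged 1.03 ± 0.06 in BPA animals and 1.16 ± 0.12 in vehicle animals, with a coefficient of variation of 10.2%. Col1a1 over Col1a2 averaged 0.28 ± 0.04 in BPA animals and 0.30 ± 0.07 in vehicle animals. It was highest in vehicle animal 3 at 0.42, and its coefficient of variation was 18.5% with that animal and 13.1% without it. Col5a1 over Col5a2 varied by 16.9% and was highest in BPA animal 5 at 1.71, without which it varied by 10.01%.

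Ratios of the chains of low signal varied more. Col4a5 over Col4a6 varied by 36.8%, and these chains themselves by 37.2% and 48.4%. Col4a3 over Col4a4 varied by 56.8%, less than the chains themselves at 82.1% and 97.4%. That value rested on BPA animal 6, where the ratio was 6.62 and Col4a4 was 17.6, and without that animal it varied by 25.9%. Both values with BPA animal 5 or 6 left out were chosen after the data were seen. Col8a1 over Col8a2 varied by 76.8%, with Col8a2 at 3.7 to 5.0 in 4 of the animals. Counting error at such signals is unknown. Across the networks, Col4a3 over Col4a1 ran from 0.01 in BPA animal 3 to 0.19 in vehicle animal 6. None of these ratios was tested.

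**Figure D5:**
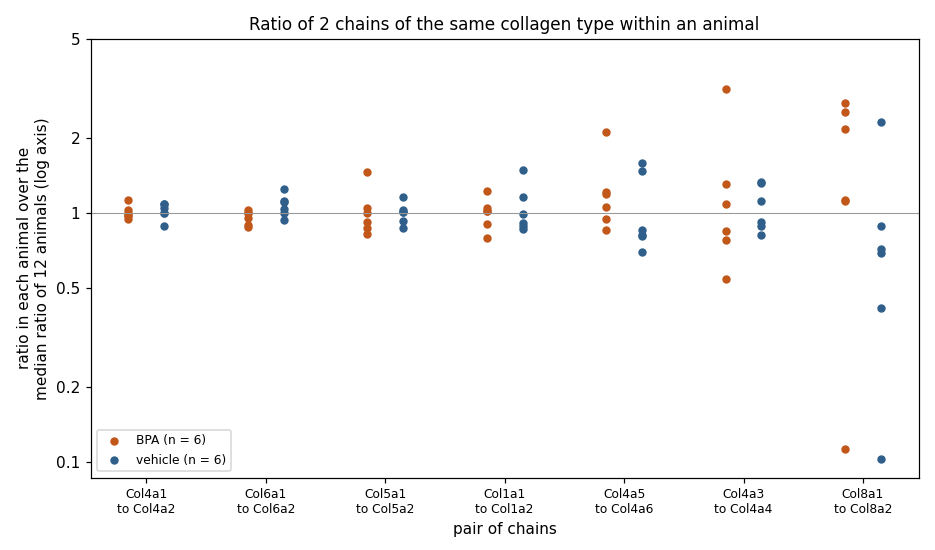
Ratio of 2 chains of the same collagen type in each animal, divided by the median ratio of the 12 animals, on a log axis, with BPA animals left of vehicle animals. Col4a1 to Col4a2 is the tightest pair, with a coefficient of variation of 6.59%, and Col8a1 to Col8a2 is the widest of the 7 pairs drawn, with 76.8%.

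Genes that act on collagen chains were read from the same limma fit, and 0 of them passed the adjusted p. Enzymes that hydroxylate or glycosylate the chains in the endoplasmic reticulum had 11 of 13 folds below 0, with a median of -0.06, and 8 of 13 without vehicle animal 3. The 2 with the smallest p were the galactosyltransferases Glt25d1, at 545 ± 120 in BPA animals and 657 ± 179 in vehicle animals, and Glt25d2, at 38.5 ± 4.4 in BPA animals and 46.6 ± 10.4 in vehicle animals (SD, n = 6 each). Chaperones and export factors had 7 of 7 folds below 0 with a median of -0.04, and 5 of 7 without vehicle animal 3. Among them, the prolyl isomerase Fkbp10 had a fold of -0.21 (-0.58 to 0.16) and the collagen chaperone Serpinh1 one of -0.13 (-0.48 to 0.22).

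Enzymes and cofactors that trim procollagen had 6 of 6 folds below 0 with all 12 libraries, a median of -0.12, and again 6 of 6 without vehicle animal 3. Pcolce, which speeds removal of the C-propeptide, averaged 328 ± 59.3 in BPA animals and 397 ± 66.3 in vehicle animals, a log2 fold of -0.28 (-0.59 to 0.03). The protease Tll1 had a fold of -0.18 (-0.58 to 0.22). Crosslinking enzymes had 6 of 6 folds below 0 and 4 of 6 without vehicle animal 3. Loxl4, a lysyl oxidase, averaged 39 ± 9.2 in BPA animals and 51.9 ± 6.5 in vehicle animals. Its fold was -0.42 (-0.78 to -0.06), with a limma p of 0.024 unadjusted and 0.9997 adjusted. The hydroxylation, chaperone, trimming, crosslinking, proteoglycan, receptor, type IV partner and TGF-beta lists had 13, 7, 6, 6, 6, 9, 12 and 9 genes past the filter. Loxl4 was the 1 gene among all of these with an unadjusted limma p under 0.05, which 1.91% of the 12528 genes tested also met. Loxl2 had a fold of -0.32 (-0.72 to 0.08), and -0.14 without vehicle animal 3, in which it was highest.

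Proteoglycans that bind fibrils had 4 of 6 folds below 0, with the small proteoglycan Bgn at 0.23 (-0.10 to 0.56) and Fmod at -0.82 (-1.87 to 0.23). Partners of type IV in the basement membrane had 8 of 12 below 0, with the laminin chain Lamb1-1 at -0.24 (-0.50 to 0.02) and Pxdn, the peroxidase that crosslinks type IV, at -0.23 (-0.62 to 0.15). Collagen receptors went the other way by count, with 7 of 9 folds above 0 and a median of 0.11, led by the integrin chain Itga2 at 0.49 (-0.08 to 1.06), while the receptor kinase Ddr2 was at -0.19 (-0.52 to 0.14). TGF-beta, the main known inducer of fibrillar collagen, and its regulators had 5 of 9 above 0, with the receptor Tgfbr2 at -0.22 (-0.48 to 0.04).

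Cell type markers were compared between the groups in the same way, since other cells can carry collagen RNA. All 8 macrophage markers had a fold below 0 with all 12 libraries, and 5 of 8 without vehicle animal 3. Fibroblast and fat progenitor markers had 8 of 9 below 0 with all 12 libraries and 7 of 9 without that animal, and their sum was 27431 to 45653 in BPA animals and 34811 to 48515 in vehicle animals. The 6 mesothelial markers past the filter all had a fold below 0, with a median of -1.14, and the sum over the list of 7 was 308 to 2604 in BPA animals with a median of 528, against 737 to 2698 in vehicle animals with a median of 1346. Smooth muscle and pericyte markers had 7 of 7 above 0, endothelial markers 6 of 7, and brown and beige fat markers 4 of 4 of those past the filter, with a median of 0.72. BPA animal 3 stood apart for smooth muscle markers, which summed to 25415 there and to at most 14794 elsewhere, and for brown and beige fat markers, which summed to 1910 there and to at most 211 elsewhere. It also had the highest collagen sum of the BPA animals, 53309. Without it 21 collagen genes had a fold below 0, with a median of -0.20, and Col11a1 no longer passed the filter. No marker passed the adjusted limma p. An unadjusted limma p under 0.05, met by 1.91% of all genes tested, was found for 2 of 8 macrophage markers (Cd163 and Mrc1). It was also found for 2 of 9 fibroblast (Thy1 and Ly6a), 2 of 6 mesothelial (Msln and Lrrn4) and 1 of 3 skeletal muscle markers (Mybpc2). Mybpc2 was highest in vehicle animal 3, at 85.7, and did not pass the filter without that animal. Of the other skeletal muscle markers past the filter, Acta1 had a fold of 0.30 and Myl1 one of -0.08. Cd163 had a fold of -0.74, and -0.69 without vehicle animal 3. Like Cd163, the markers Mrc1, Thy1 and Ly6a were highest in that animal. Their folds were -0.35, -0.52 and -0.41, and without it -0.22, -0.32 and -0.30. For Msln and Lrrn4 the folds were -1.52 and -1.25, and without it -1.53 and -1.295. The part of these cells in the collagen folds was not tested.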

How the data were processed

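RNA was measured in epididymal fat of 12 animals, 1 ribosomal RNA depleted SOLiD library each, per the labels' protocols. The deposited values are the authors' normalized read signal per gene, not divided by length and not raw counts. The submitters' processing notes name mm9 and edgeR for the authors' work, and the sources used here give no versions, aligner or annotation. Signal sums to 9628801 to 11582945 per library after rescaling, so depth is unknown and reads could not be recovered. The authors' p-values and linear fold for low-Fggy animals were read as deposited, per the file headers. A total of 60 per-sample columns in tables of that comparison were not used, nor were the methylation windows, which could not be assigned to genes.

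Groups and animal numbers came from the sample descriptions. BPA was compared with vehicle by limma 3.58.1 (R 4.3.3, trend on intensity) on log2(value + 1), with Benjamini-Hochberg adjustment at 0.05, over genes that reached 10 in 6 or more libraries. Fold changes on this scale understate changes of low genes. Each member was also tested by exact permutation of the mean log2 values. The procedure was tested on simulated data. Levels were meant to be divided by transcript length; no lengths were used, so signal was ranked as deposited. Named members are the 3 of highest signal per class and both chains of the ratios in types I, IV, V, VI and VIII, plus any with an unadjusted p under 0.05 or separate groups, of which there were none. Others are named as chosen after their values were seen, and of each related list the 2 genes with the smallest p, of which 1 is not reported here. Members and gene lists were chosen with earlier results of these data known. Alternatives were other pseudocounts, filters, scalings and limma settings, the animal number as a block, and leaving out libraries. P-values set the difference between the groups against the spread between animals, which were taken as independent because litters are not given.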

Additional observations from a re-analysis of the deposited data

Results flagged for a closer look

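In each group of 6 animals, the highest or lowest value was flagged when its gap to the nearest other animal as a share of the group's range exceeded Dixon's 95% critical value. This gave 13 flags in 56 groups of the 28 genes, and chance flags about 1 in 20 groups, although genes that vary together are not separate chances. That rate assumes normal values, and the signal was taken here without a log, so the rate for these data is unknown. Vehicle animal 3 gave 4 of them, as the highest vehicle value of Col3a1 at 35481, Col1a2 at 11344, Col1a1 at 4777 and Col6a2 at 2315. Its macrophage markers summed to 38406, against at most 15915 elsewhere, and their part in these values was not tested.

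BPA animal 5 was far above the other BPA animals for Col4a3 at 560.1, Col4a4 at 314.5 and Col8a2 at 51.6. Vehicle animal 6 was far above the other vehicle animals for Col4a3 at 498.5, Col4a4 at 266.5, Col8a2 at 60.8 and Col11a1 at 47.1. Duct epithelium markers summed to 14176 and 13269 in these 2 libraries, and their part was not tested. BPA animal 2 was far below the other BPA animals for Col4a1 at 2646.5 and Col4a2 at 2984, with a ratio of the chains, 0.89, inside the range of the other animals.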

How the results depend on the processing

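In each of 24 other settings limma called 0 genes, so no collagen gene. Leaving aside the setting with no filter, at most 422 genes had an unadjusted limma p under 0.05 in any of them. The count of collagen genes with a fold below 0 was 15 to 21 when 1 library was left out (20 with all), 25 of 38 with no filter, and 13 with a mean of at least 100, where fewer genes were tested. Leaving out 1 library gave medians of -0.20 to -0.01 for all collagen genes, -0.22 to 0.03 for fibrillar (above 0 without vehicle animal 3), -0.57 to -0.11 for type IV and -0.16 to -0.05 for other types. Of the 18 named genes, 5 kept the sign of their fold in all 24 settings, and another 5 (Col4a4, Col4a6, Col8a2, Col11a1 and Col19a1) in the 15 to 23 settings in which they passed the filter. An unadjusted limma p under 0.05 occurred in 6 settings for Col19a1, in 3 for Col6a1 and, without the duct-rich libraries, for Col4a3 and Col4a4. The fit without the duct-rich libraries leaves out the highest BPA values of Col4a3 and Col4a4, so it is no test of BPA for them. Without vehicle animal 3, folds turned to 0.0116 for Col1a1, 0.0537 for Col4a1, 0.0437 for Col4a2, 0.0221 for Col5a1, 0.036 for Col5a2 and 0.0032 for Col6a2. With each library left out in turn, their folds ran from -0.33 to 0.0116, -0.21 to 0.0537, -0.16 to 0.0437, -0.21 to 0.0221, -0.26 to 0.036 and -0.15 to 0.0032 in that order. Without BPA animal 2, Col4a1, Col4a2 and Col8a1 also changed sign, the last to -0.0346 (range -0.0346 to 0.22), as did Col5a2 without BPA animal 5. Col15a1 ran from -0.1187 to 0.1284 and was below 0 in 5 of these fits, those lacking BPA animals 1, 4 and 6 and vehicle animals 2 and 6, each singly. Without animal 3 of both groups, Col4a1 was at 0.006 and Col4a2 at 0.0271. Without the 3 duct-rich libraries Col5a2 was at 0.0016. The cause was not tested.

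The animal numbers only name animals. Deviations from the group means of same-numbered animals correlated between -0.57 and 0.40 over genes, with 4 of 6 pairs above 0.1, and 1 of 6 BPA animals correlated best with its own number. A replicate block, which cannot move the folds of complete pairs, gave 0 called genes and a Col6a1 limma p of 0.0333 unadjusted, against 0.0702 without it. Depth is unknown, which limits the genes of lowest signal most.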
